A study of Haemaphysalis flava with 2 samples.

Results

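The 60 contigs described here are assembled transcripts of the hard tick Haemaphysalis flava whose best-matching protein is named for apoptosis or cell death. They were taken from 54357 contigs by words in that name (caspase, apoptosis, Bcl-2, programmed cell death, inhibitor of apoptosis, death-associated, death domain and similar), and names of the oligosaccharyltransferase subunit known as defender against cell death were left out. The word rule uses no expression value, though it was chosen with earlier results of these data known. The 60 contigs match 35 different proteins. The match is from the tick Rhipicephalus pulchellus for 45 contigs, Haemaphysalis longicornis for 7, Ixodes scapularis for 6, Amblyomma variegatum for 1 and the oyster Crassostrea gigas for 1. A name is that of the best match only, and several contigs can be pieces or variants of 1 gene.

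Polyadenylated RNA was measured in salivary glands of engorged ticks and of semi-engorged ticks, with 1 library per stage. The series text counts 100 glands in all, and 50 ticks at each stage. Neither group carries a label for strain, host, sex, age, treatment or time after attachment. The engorged library held 57892372 reads on contigs and the semi-engorged library 54039984.

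Apoptosis is an ordered death of cells carried out by caspases, cysteine proteases that cut other proteins. The Apaf protein gathers initiator caspases into an activating complex, inhibitor of apoptosis proteins bind caspases and hold them back, and Bcl-2 family proteins act at the mitochondrial membrane. Salivary glands of female hard ticks are known to degenerate after engorgement, with signs of programmed cell death in their acini. With 1 library per stage there is no replicate, so every value below describes these libraries and no p-value was computed. In whole glands, fewer cells of a type and less RNA per cell cannot be told apart.

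A contig with at least 20 reads over both libraries was called higher or lower in the engorged library when the log2 ratio of its CPM + 1 (CPM being reads per 1000000 of the library) reached 1 or -1. The added 1 keeps low contigs under this bound even where their plain CPM ratio passes 2. Glands were recognisable by their secreted families. Contigs named metalloprotease, lipocalin, Kunitz or glycine-rich summed over 366 contigs to 12485 CPM in engorged glands and to 29836 CPM in semi-engorged glands. Of 361 with at least 20 reads, 66 were called higher and 192 lower in the engorged library. Over all contigs 13.0% were called higher and 15.5% lower, and the marker counts below stand against the same shares. Contigs with names used here as markers of other cells were present too. A name alone does not show which cells a contig came from. Haemocyte and fat body contigs summed to 2139 and 2138 CPM (4 higher and 1 lower of 36, with 4 of 42 at 0 reads in engorged and 1 in semi-engorged glands). Muscle contigs summed to 543 and 496 CPM (8 and 7 of 33, none at 0), and nerve contigs to 702 and 936 CPM (0 and 2 of 8, none at 0). Midgut and cuticle contigs summed to 210 and 472 CPM (3 and 11 of 37, with 2 and 4 of 43 at 0), and host blood contigs to 31.0 and 5.88 CPM (3 and 0 of 3, none at 0). The part of these cells in the results below was not tested.

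In the engorged library 8 of 59 cell death contigs were called higher and 2 lower. The 8 comprise a pair of contigs named for the PDCD6-interacting protein, a pair named caspase-2, a pair named Apaf, a THAP domain contig and a chromatin condensation inducer. The 2 lower ones are another caspase-2 contig and a cell-cycle and apoptosis regulator. The remaining 49 lay between these bounds. Among them were all inhibitors of apoptosis, both contigs named for Bcl-2 or a protein that binds it, and all death-associated kinases that were measured. The remaining member, contig_45340, fell under the minimum of 20 reads. The share of higher members, 13.6%, is close to the 13.0% of all 47965 contigs that were called higher in the engorged library. Lower members were 3.39%, against 15.5% of all contigs. Of contigs with a protein description, 15.4% were higher and 16.6% lower. The median log2 fold was 0.26 over the members and -0.049 over all contigs. Among contigs with at least 100 reads, which the members reach more often (median 642.5 reads, against 179 over all), 8 and 2 of 47 members were higher and lower, and 20.7% and 22.4% of all such contigs. The median log2 fold at that depth was 0.58 over the members and 0.10 over all contigs. Of all such contigs, 53.5% had the higher CPM in engorged glands.

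The CPM of the engorged library was above that of the semi-engorged library in 41 of 59 members, which is 69.5%, against 47.7% of all contigs and 50.6% of described ones. The 95% counting interval of the CPM ratio lay above 1 in 33 of 60 members, below 1 in 16 and across 1 in 11; over all contigs with at least 20 reads 36.8% lay above and 41.5% below. This share moved with the scaling. The 17032 contigs that reach 100 reads in each library had a median log2 ratio of 0.23. After it was set to 0, 32 members (54.2%) were above, against 42.0% of all contigs, and the median member stood at 0.040. In all, members accounted for 0.558% of reads in engorged glands (95% Wilson limits of 0.556% and 0.560%) and for 0.393% in semi-engorged glands (limits of 0.392% and 0.395%).

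**Figure D1:**
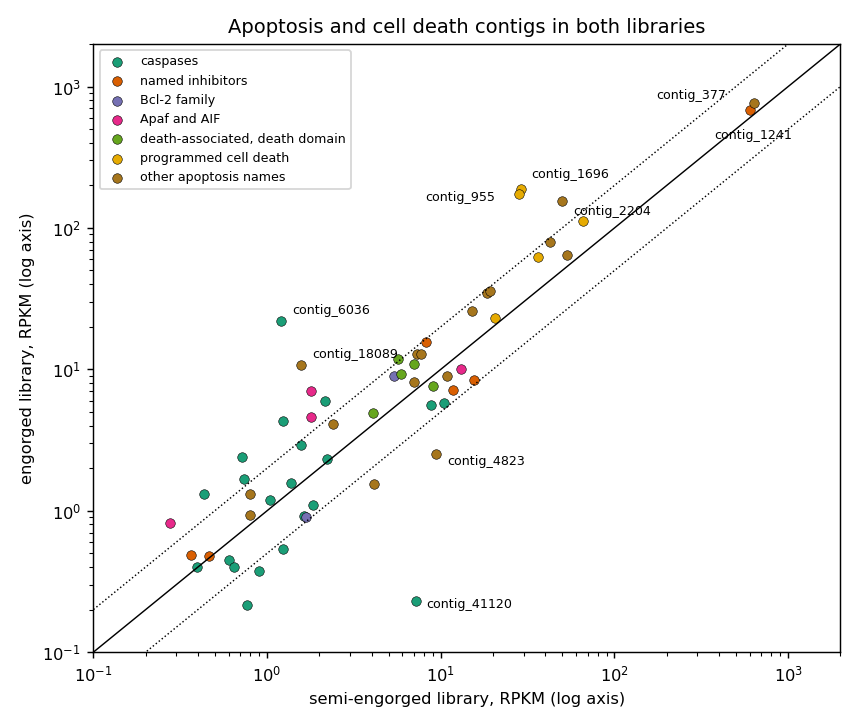
RPKM of the 60 contigs in the engorged library (vertical, log axis) and the semi-engorged library (horizontal, log axis), coloured by role; the solid line marks equal values and dotted lines a 2-fold difference. Most points lie near the solid line, contig_6036 stands far above it at 21.9 and 1.20 RPKM, and contig_41120 far below it at 0.231 and 7.17 RPKM.

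**Figure D2:**
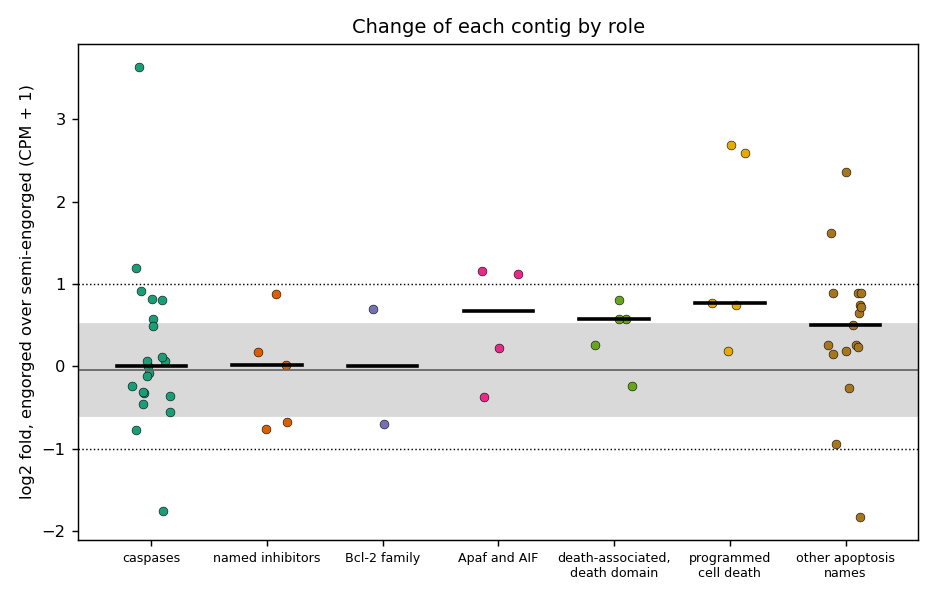
Log2 fold of the 59 contigs with at least 20 reads, by role; thick bars are medians, the grey band runs between the lower and upper quartile of all contigs, with their median as a line, and dotted lines mark 1 and -1. Caspases centre on 0.003 and have the widest range, with contig_6036 as the top value, whereas the 5 contigs grouped as programmed cell death lie above 0.18. The apoptosis-inducing factor contig_10989, also named programmed cell death 8, was grouped with Apaf and lies at -0.37.

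Caspases made up 21 of the 60 contigs and had the widest range of log2 folds, -1.76 to 3.64. That width rests on contig_6036. Without it the range was -1.76 to 1.20, against -1.83 to 2.37 for the other apoptosis names. They match 6 proteins: 11 contigs match a caspase-2 of Rhipicephalus pulchellus, 5 a caspase-2 and 2 a caspase-8 of Haemaphysalis longicornis, and 1 each a further caspase-2 and 2 proteins named only as caspases. Caspase-2 and caspase-8 are initiator caspases in vertebrates. Of the 21, 2 were called higher and 1 lower in the engorged library, against 13.0% and 15.5% of all contigs, and their median log2 fold was 0.003. By the plain CPM ratio, without the added 1, 6 caspases were at least 2-fold higher and 4 at least 2-fold lower, against 24.9% and 33.5% of all contigs. Counting intervals put 7 ratios above 1 and 8 below, and 6 included 1. Caspase contigs are short, with a median of 664 bases against 1606 for the other members, and 12 of the 21 were under 2 RPKM in both libraries. At under 100 reads each, 9 of them had log2 folds of -0.32 to 0.57, where the added 1 draws values toward 0.

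The caspase-2 contig_6036 had 2124 reads in the engorged library, against 109 in the semi-engorged library. That is 21.9 and 1.20 RPKM (reads per kilobase of contig and 1000000 reads), a CPM ratio of 18.2 (exact 95% interval 15 to 22.3, for counting error only). It was the largest ratio in favour of the engorged library among the 60 contigs. Contig_16627 had 222 reads against 60, or 4.28 and 1.24 RPKM, a ratio of 3.45 (2.59 to 4.67). In the other direction, contig_41120 had 5 reads in the engorged library, against 145 in the semi-engorged library, and was 31.1-fold lower (13 to 97.1). Contig_6036, contig_16627 and contig_41120 all match the same caspase-2, so that single protein name was called in both directions. It was the only one of the 11 names with several contigs to do so. With 10 CPM added in place of 1, contig_16627 and contig_41120 fell to log2 folds of 0.32 and -0.33, and only contig_6036 kept its call.

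Between these extremes lay caspases of medium level. Contig_4573, the most abundant caspase of the semi-engorged library, had 491 reads against 822, or 5.82 and 10.4 RPKM, and was 1.79-fold lower (1.60 to 2.01). Contig_17652, named only as a caspase, had 5.55 and 8.75 RPKM and was 1.58-fold lower (1.34 to 1.85). The longest caspase contig, contig_9603 at 5239 bases, had 882 reads against 446, a ratio of 1.85 (1.65 to 2.07). Levels of 2.42 and 0.714 RPKM in contig_8932 and of 6.01 and 2.15 RPKM in contig_10991 gave ratios of 3.38 and 2.80, yet their log2 folds with the added 1 stayed at 0.92 and 0.82. Contig_25625 and contig_32748 were close to even, at 2.33 and 2.21 RPKM and at 1.57 and 1.37 RPKM. Contig_18697 and contig_14547 stood at 0.914 and 1.64 RPKM and at 1.09 and 1.84 RPKM.

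Summed over all 21 contigs, caspase reads were 4889 in the engorged library, against 2684 in the semi-engorged library, a CPM ratio of 1.70 (1.62 to 1.78). This sum rests on 1 contig: contig_6036 held 43.4% of caspase reads in engorged glands and 4.06% in semi-engorged glands. Without it the sums were 2765 and 2575 reads, a ratio of 1.002 (0.95 to 1.06). The most abundant semi-engorged caspase, contig_4573, held 10.04% of caspase reads in engorged glands and 30.6% in semi-engorged glands. The 2 caspase-8 contigs together had 27 reads against 42, and the 5 contigs of the Haemaphysalis longicornis caspase-2 had 135 against 154.

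**Figure D3:**
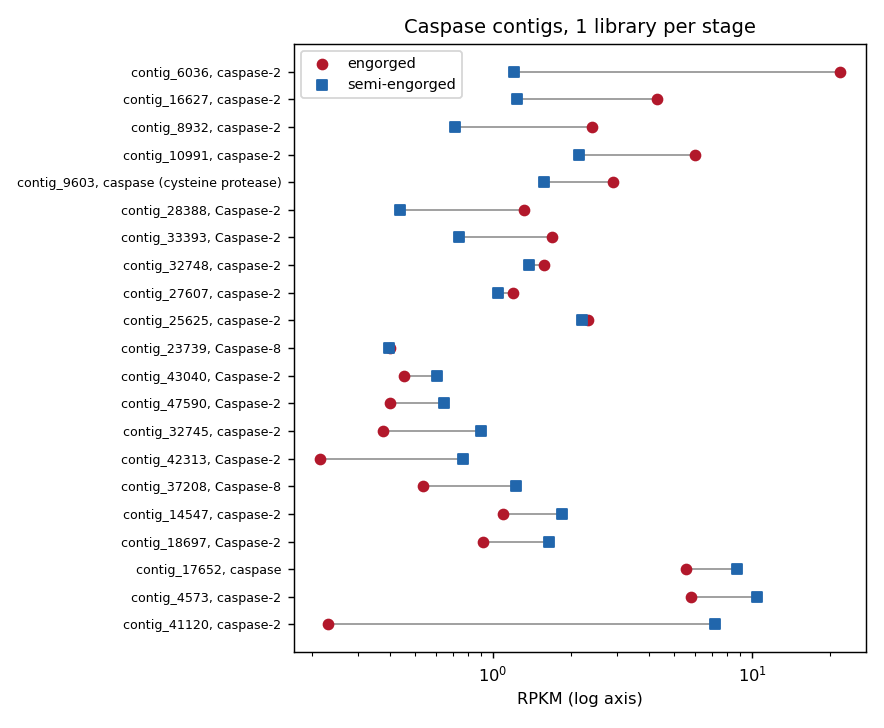
RPKM (log axis) of each of the 21 caspase contigs in the engorged library (circles) and the semi-engorged library (squares), ordered from the largest log2 fold at the top. The order of the libraries turns within caspase-2, with contig_6036 at 21.9 against 1.20 RPKM at the top and contig_41120 at 0.231 against 7.17 RPKM at the bottom.

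Apaf, the scaffold that activates initiator caspases, was represented by 3 contigs matching 1 protein, all with a higher engorged value. Contig_19131 had 472 reads in the engorged library, against 173 in the semi-engorged library, or 4.58 and 1.8 RPKM, a ratio of 2.55 (2.14 to 3.05). Contig_21226 had 164 against 39, or 7.05 and 1.8 RPKM, a ratio of 3.93 (2.75 to 5.72). The third, contig_19487, is 336 bases long and had 16 reads against 5. Summed, the Apaf reads gave a ratio of 2.80 (2.40 to 3.29). Both Apaf calls are marginal. The log2 fold of contig_19131, 1.12, became 0.93 with the median ratio set to 0 and 0.46 with 10 CPM added in place of 1. That of contig_21226, 1.15, became 1.02 and 0.26. The apoptosis-inducing factor (contig_10989), also named programmed cell death 8, is a mitochondrial flavoprotein that in mammals moves to the nucleus during cell death. It had 1791 reads against 2175 and was 1.30-fold lower (1.22 to 1.39).

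Proteins that restrain cell death had folds in both directions. The inhibitor of apoptosis contig_4749 had 1767 reads in the engorged library, against 871 in the semi-engorged library, or 15.5 and 8.19 RPKM, a ratio of 1.89 (1.75 to 2.06). A shorter contig of the same match, contig_39537, had 21 reads against 19. Both contigs of apoptosis inhibitor 5, a nuclear protein described in mammals as protecting cells from death, were lower in the engorged library: contig_3809 by 1.65-fold (1.5 to 1.81; 7.14 and 11.8 RPKM) and contig_26776 by 1.85-fold (1.58 to 2.17; 8.35 and 15.5 RPKM). None of these was called. The oyster-matched apoptosis 2 inhibitor (contig_45340) had 10 reads against 7.

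Bax inhibitor 1, a membrane protein of the endoplasmic reticulum that dampens cell death, was among the most abundant members. Its contig_1241 had 67234 reads in the engorged library, against 55869 in the semi-engorged library, or 680 and 605 RPKM, a ratio of 1.12 (1.11 to 1.14). That level was position 167 of all contigs in engorged glands and position 292 in semi-engorged glands. The Golgi antiapoptotic protein (contig_1938), of the same protein family, had 64.0 and 53.5 RPKM, a ratio of 1.20 (1.16 to 1.24). In contrast, the contig named as a Bcl-2 family regulator (contig_24605) had 158 reads against 275, or 0.898 and 1.67 RPKM, and was 1.86-fold lower (1.53 to 2.28). A Bcl2/adenovirus E1B 19-kD interacting protein (contig_4122), a name given in mammals to proteins that bind Bcl-2, had 8.96 and 5.38 RPKM, a ratio of 1.66 (1.53 to 1.81).

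A pair of abundant contigs called higher in the engorged library was named for the PDCD6-interacting protein, known in mammals as ALIX, a partner of the ESCRT machinery that sorts and repairs membranes. Contig_1696 had 18009 reads in the engorged library, against 2569 in the semi-engorged library, or 188 and 28.8 RPKM, a ratio of 6.54 (6.28 to 6.82). Contig_955 had 16109 against 2442, or 173 and 28.1 RPKM, a ratio of 6.16 (5.90 to 6.43). They match 2 different entries, have lengths of 1652 and 1606 bases, and whether they are parts of 1 transcript was not tested. The remaining contigs grouped as programmed cell death had smaller ratios. PDCD4 (contig_4994), an inhibitor of translation initiation in mammals, stood at 62.3 and 36.2 RPKM, a ratio of 1.72 (1.65 to 1.79). The contig_8147 match, named only as a programmed cell death protein, stood at 112 and 65.9 RPKM, a ratio of 1.69 (1.61 to 1.78). A ubiquitin-conjugating enzyme-related protein (contig_4509) stood at 23.2 and 20.4 RPKM.

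Acinus, a nuclear protein that in mammals takes part in splicing and in the chromatin condensation of dying cells, was matched by 2 contigs. The chromatin condensation inducer contig_2204 had 31190 reads in the engorged library, against 9420 in the semi-engorged library, or 155 and 50.2 RPKM, a ratio of 3.09 (3.02 to 3.16). The acinus contig_948, at 11265 bases the longest member, had 12.8 and 7.72 RPKM, a ratio of 1.66 (1.60 to 1.72). Both were higher in the engorged library, and only contig_2204 was called. Their counting intervals do not overlap.

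A pair of contigs matching 1 THAP domain protein stood apart from each other. THAP domains are zinc-dependent DNA-binding folds. Contig_18089 had 986 reads in the engorged library, against 135 in the semi-engorged library, or 10.7 and 1.57 RPKM, a ratio of 6.82 (5.69 to 8.22). Contig_10361, with the same best match, had 73 against 182 and was 2.67-fold lower (2.03 to 3.55); its log2 fold with the added 1 was -0.95, just inside the bound. The cell-cycle and apoptosis regulatory protein 1 (contig_4823), a transcription coactivator in mammals, had 777 reads against 2725, or 2.50 and 9.40 RPKM, and was 3.76-fold lower (3.47 to 4.07).

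None of the 5 contigs of the death-associated group was called, though the plain ratio of contig_11758 is above 2 (its log2 fold with the added 1 was 0.81). The 3 contigs of a death-associated protein kinase, a calcium- and calmodulin-regulated kinase in mammals, had ratios of 1.54 (contig_16273), 1.55 (contig_13941) and 2.10 (contig_11758), and together 1821 reads in the engorged library, against 1057 in the semi-engorged library, a ratio of 1.61 (1.49 to 1.74). Death-associated protein 6 (contig_607), known in mammals as the histone chaperone DAXX, had 4.92 and 4.07 RPKM. The MAP kinase activating death domain protein (contig_380) had 7.62 and 9.02 RPKM and was 1.18-fold lower (1.1 to 1.28).

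The most abundant member in both libraries was named for TIA-1/TIAR, an RNA-binding protein of stress granules. Contig_377 had 125198 reads in the engorged library, against 97616 in the semi-engorged library, or 764 and 638 RPKM, a ratio of 1.20 (1.19 to 1.21). Together with Bax inhibitor 1 it held 59.6% of the members' engorged reads and 72.2% of their semi-engorged reads. Without these 2 contigs the members' summed ratio was 2.06 (2.04 to 2.08), and with them 1.42 (1.41 to 1.43). Of the 130696 engorged reads then left, contig_2204, contig_1696 and contig_955 held 31190, 18009 and 16109. Of the 59138 semi-engorged reads left, they held 9420, 2569 and 2442. The median log2 fold without the 2 was 0.26, so the ratio of sums is not that of a typical member. The 8 contigs called higher held 21.4% of the members' reads in engorged glands and 7.03% in semi-engorged glands. They were chosen by that difference, so the direction of this shift follows from the call. Of the remaining names, 14 of 17 in the group of other apoptosis names had a higher engorged CPM, among them an apoptosis related protein (contig_2702) at 79.7 and 42.5 RPKM and the membrane-associated apoptosis protein contig_6175 at 35.9 and 19.2 RPKM. The mitochondrial ribosome component DAP3 (contig_10084) had 8.92 and 10.9 RPKM.

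**Figure D4:**
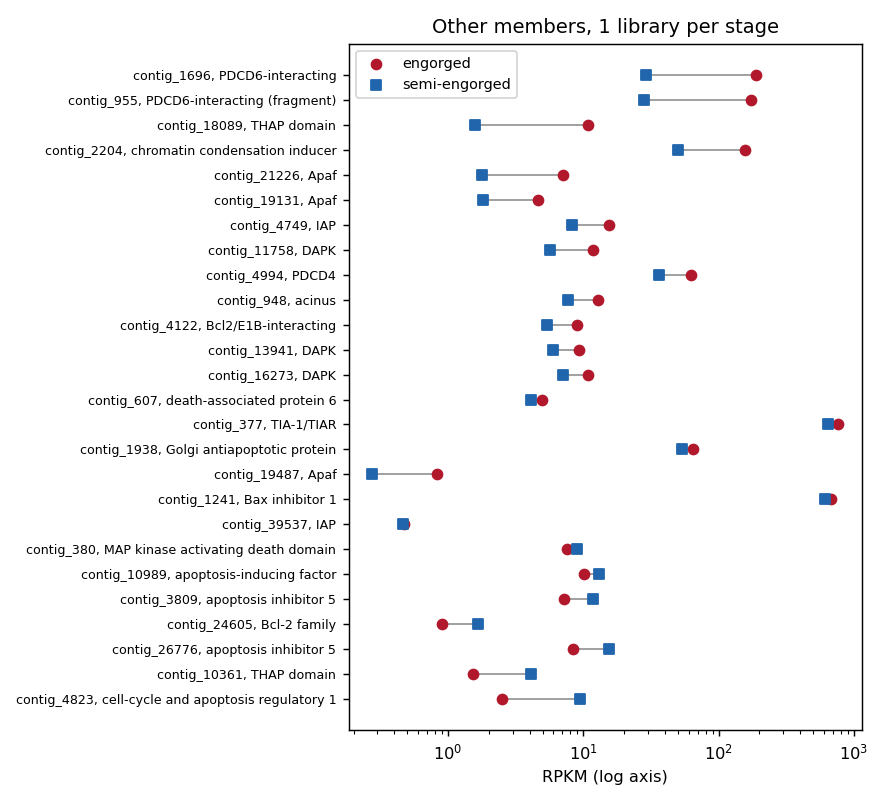
RPKM (log axis) of 26 members other than caspases in the engorged library (circles) and the semi-engorged library (squares), ordered from the largest log2 fold at the top. The THAP domain contig_18089 and the PDCD6-interacting contigs separate most, at 10.7 against 1.57 RPKM for contig_18089 and 188 against 28.8 RPKM for contig_1696, whereas TIA-1/TIAR and Bax inhibitor 1 lie far right with nearly equal values.

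Levels per length set the members in a wide order. In the engorged library contig_377 and contig_1241 led at 764 and 680 RPKM, followed by contig_1696, contig_955 and contig_2204 at 188, 173 and 155 RPKM. In the semi-engorged library the same leading pair was followed by contig_8147, contig_1938 and contig_2204 at 65.9, 53.5 and 50.2 RPKM. In all, 9 members reached 50 RPKM in either library, and 18 stayed under 2 RPKM in both, 12 of them caspases. Each level comes from 1 library, so neighbours in this order cannot be set against replicate spread.

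Other genes of cell death pathways, found by name and not among the members, were called in both directions. Of 53 such contigs with at least 20 reads, 7 were called higher and 8 lower in the engorged library, against the 13.0% and 15.5% of all contigs given above. Their median log2 fold was 0.21, and 32 of the 53 had the higher CPM in engorged glands, against 47.7% of all contigs. Without the sphingomyelinase names, a choice made after seeing the data, 28 of 40 had it, with a median of 0.34. With the median ratio set to 0, the median of the 53 was 0.036, against -0.16 over all contigs. Names for cytochrome c, HtrA2, Smac, scramblases, voltage-dependent anion channels and receptor-interacting kinases had no match by the words used. The pattern for Jun N-terminal kinase matched 5 contigs of proteins associated with it and no kinase itself. The pattern for sphingomyelinase also took sphingomyelinase D, a venom-type enzyme, and activator proteins.

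The largest log2 fold upwards in that list, with the added 1, was that of draper (contig_1521), in Drosophila a receptor by which phagocytes take up dying cells. It had 13863 reads in the engorged library, against 2087 in the semi-engorged library, a ratio of 6.2 (5.92 to 6.50). Plain ratios were as large or larger in contigs of few reads: p53 (contig_14808), a regulator of the damage response, had 50 reads against 7, and calpain A (contig_36720), a calcium-dependent protease, had 43 against 0. TNF receptor-associated factors, adaptors of death and immune receptors, went both ways: contig_5904 had 1479 reads against 315, a ratio of 4.38 (3.88 to 4.97), whereas contig_20195 had 12 against 385 and was 34.4-fold lower (19.4 to 67.1). Sphingomyelin phosphodiesterases, all with at least 100 reads, counted 2 higher and 5 lower of 13, against 20.7% and 22.4% of all contigs at that depth. Of these, contig_17734 had 55 reads against 662 and was 12.9-fold lower, and First_Contig878 had 197 against 1183 and was 6.43-fold lower. Without the sphingomyelinase names, the list counted 5 higher and 3 lower of 40. Poly ADP-ribose polymerase 1, a DNA damage enzyme that caspases cut, had 3 contigs with log2 folds of 0.70 to 0.98, none called. The family member 16 (contig_19903) had 502 reads against 1056 and was called lower, by 2.25-fold (2.02 to 2.51).

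**Figure D5:**
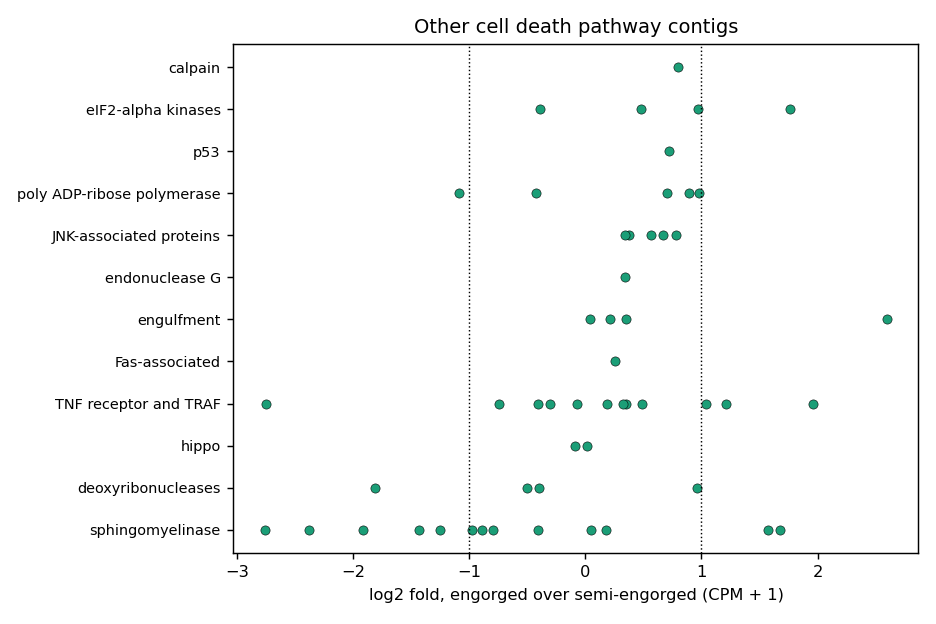
Log2 fold of the 53 contigs of other cell death pathway names with at least 20 reads, 1 point per contig, grouped by name; dotted lines mark 1 and -1. Draper stands out among engulfment names at 2.60, and sphingomyelinase contigs spread from -2.76 to 1.67.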

How the data were processed

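Per the file headers, the authors deposited a read count and an RPKM value for each assembled contig in both libraries. The submitters' processing notes list CASAVA 1.8, TopHat and Cufflinks without saying what each did. For the assembly, the protein search and the counting, the tool is not given in the sources used here. Contig lengths were derived from the deposited counts and RPKM, which gave whole lengths to within 0.000232 bases. Counts were scaled to CPM by the library total. The log2 fold compares CPM + 1 in engorged with CPM + 1 in semi-engorged glands, for contigs with at least 20 reads over both libraries, and understates low contigs. Printed ratios are CPM ratios without the added 1. Intervals (95%, exact Clopper-Pearson for ratios, Wilson for shares) cover counting error only, since reads carry no molecular identifiers. Close copies may have split reads between contigs. Samples were grouped by their stage labels. With 1 library per stage no test was made.

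The members, the role groups and the lists of other genes were chosen with earlier results of these data known. Named contigs are members at the log2 bound of 1, the most abundant of each role, the 5 highest by RPKM in each library, caspases, inhibitors and Bcl-2 contigs with at least 100 reads, and the 5 largest folds of the other pathway list; other contigs named in the text were picked after their values were seen. Python 3.11.15, pandas 2.3.3, SciPy 1.17.1 and edgeR 4.0.16 (for TMM factors) were used.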

Additional observations from a re-analysis of the deposited data

How the results depend on the processing

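No paired analysis was possible because each stage has 1 library, and no library could be left out. The 8 higher and 2 lower of 59 members (13.0% and 15.5% of all contigs) became 13 and 4 with a pseudocount of 0.1 CPM (22.8% and 31.3% of all), 5 and 1 with 10 CPM (4.21% and 5.23%), and 4 and 0 at a log2 fold of 2 (3.68% and 6.72%), so the shares over all contigs moved the same way. They became 16 and 2 (18.2% and 16.3%) with totals that leave out the 50 most abundant contigs. With 0 reads set to 3 and no pseudocount they were 14 and 6 (24.9% and 33.5%). Over 34 proteins, they became 6 and 1 (18.8% and 13.7%) with 1 contig per identical description. With reads summed per best-matching protein they were 5 and 1 (18.5% and 13.7%). The members' median of 0.26 (-0.049 over all) fell to 0.040 with the median ratio set to 0 (-0.16) and to 0.12 with 10 CPM (-0.0087). It rose to 0.58 with a filter of 100 reads (0.10), 0.56 with RPKM (-0.035) and 0.48 without the 50 most abundant contigs (0.067). Over 34 proteins it was 0.53 with 1 contig per description (0.18) and 0.57 with summed reads (0.17). The 7 higher and 8 lower of 53 pathway contigs became 14 and 11 with 0.1 CPM, and 3 and 2 with 10 CPM. At a log2 fold of 2 they were 1 and 3. Without the 50 most abundant contigs they were 13 and 7, and with no pseudocount 15 and 12. With 1 contig per description or with summed reads they were 7 and 5 of 40. Without sphingomyelinases they were 5 and 3 of 40. The shares over all contigs are those printed above for the same settings, and 13.0% and 15.5% for the list without sphingomyelinases. Summed reads, no pseudocount and the list without sphingomyelinases were chosen after seeing the data. The members' read shares of 0.558% and 0.393% became 0.867% and 0.523% (ratio 1.66) without the 50 most abundant contigs, and 0.342% and 0.213% (ratio 1.61) without contig_377. Beyond these shifts in the background and in the number of features, the causes were not tested. Counts with no filter, a filter of 100 reads, RPKM, TMM or the median ratio set to 0 were within 1.5 times. Another pseudocount or RPKM cannot change the direction of a contig, and the scalings moved log2 folds too little to turn a called one. Unchanged directions are therefore no check of the calls. Of the 25 called contigs (10 members, 15 of the pathway list), 14 fell under the bound with 10 CPM and 3 with RPKM. With the median ratio set to 0, 2 fell under it, and 1 did without the 50 most abundant contigs. Low read numbers limit the caspases most.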
